A study of Mus musculus with 6 samples.

Results

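The genes described here are 40 chaperone and protein folding stress genes of the mouse listed by name from the biology of protein folding. They comprise 20 genes of the endoplasmic reticulum (ER) and its unfolded protein response, and 20 genes of the heat shock response, the mitochondrial chaperones and the cytosolic chaperonin CCT. A gene was found on the array when a probe carried a RefSeq transcript accession of that gene. This held for 39 of the 40 genes, through 50 probes. All 39 were bright enough to be tested, out of 25421 genes and transcribed intervals tested in all. Hspa1b had no such probe and was not measured. The list was made with earlier results of these data known.

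The cells were of J1, a mouse embryonic stem cell line (strain 129S4/SvJae, inner cell mass). Both groups had been adapted to gelatin and were grown in medium with serum replacement and 1000 U/ml of LIF, the cytokine that sustains self-renewal. The treated group had 3 samples exposed to 1 µM SC1 for 6 h and the control group had 3 samples exposed to DMSO for 6 h. SC1, or pluripotin, is a synthetic compound known as an inhibitor of the kinase ERK1 and of RasGAP, and DMSO is its solvent. Total RNA of each sample was hybridised to 1 single-colour array. The comparison asked how the treatment changed the messenger RNAs. J1 is a single line, and the labels do not say that the replicates were separate cultures, so a p-value here covers only how far these arrays differ within a group, which may be technical variation.

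Proteins that enter the ER fold with the help of the HSP70 protein BiP, the HSP90 protein GRP94, lectin chaperones and disulfide isomerases. When unfolded proteins accumulate there, the sensors IRE1 and ATF6 activate the transcription factors XBP1 and cleaved ATF6, which raise chaperone genes and the genes of ER-associated degradation. In the cytosol the transcription factor HSF1 plays the matching part for HSP70, HSP90 and their J protein partners. Embryonic stem cells are known for high levels of cytosolic chaperones.

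The sequences that these factors read are shown first. The ER genes were listed as genes of the unfolded protein response, so their share of such elements is a description and not a test. The ER stress element, written here as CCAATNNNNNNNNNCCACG, is bound by ATF6 and XBP1 next to the CCAAT-binding factor NF-Y. It was searched on both strands in windows from 250 bases before to 50 bases after each gene's start, taken from RefSeq on GRCm38.p6. Windows were at hand for 17 of the 20 ER genes and 14 of the 20 others. Hyou1, Manf and Atf6 among the ER genes had no window, nor did Hspa8, Hspa9, Hsp90aa1, Hsp90ab1, Hsf1 and Cct4. The element occurred in 7 of the 17 ER genes (41.2%), in 0 of the 14 others, and in 37 of 27025 genes (0.137%). The stretches below run 5′ to 3′ on the strand of the element, with its fixed letters in capitals.
Hspa5, chr2:34772020-34772048, plus strand: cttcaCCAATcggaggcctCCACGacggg
Pdia6, chr12:17266486-17266514, plus strand: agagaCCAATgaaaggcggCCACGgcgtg
Dnajc3, chr14:118937822-118937850, plus strand: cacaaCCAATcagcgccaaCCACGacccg
Hsp90b1, chr10:86705528-86705556, plus strand: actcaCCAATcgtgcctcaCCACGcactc
Hsp90b1, chr10:86705633-86705661, minus strand: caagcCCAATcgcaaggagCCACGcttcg
Calr, chr8:84847070-84847098, plus strand: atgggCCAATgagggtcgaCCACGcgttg
Canx, chr11:50325795-50325823, minus strand: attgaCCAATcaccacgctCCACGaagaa
Creld2, chr15:88819515-88819543, minus strand: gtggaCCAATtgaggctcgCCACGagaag
The matches lay at -212 to -47, counted from the start base as 0. Hsp90b1 was the member with a pair of them, in opposite orientations.

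A shorter form, ER stress element II, made of ATTGG and CCACG with 1 base of any kind between them, was searched in the same windows. Its first letters are the CCAAT box read on the other strand, so both elements overlap the CCAAT box. It occurred in Herpud1 and Dnajb11 among the 17 ER genes, in 0 of the 14 others, and in 12 of 27025 genes (0.0444%). The CCAAT box alone was found in 15 of the 17 ER genes (88.2%), 7 of the 14 others (50%) and 41.1% of all genes. The UPR element TGACGTGG, an XBP1 site, matched no member and 0.714% of all genes.
Herpud1, chr8:94386368-94386396, plus strand: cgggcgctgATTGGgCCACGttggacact
Dnajb11, chr16:22857843-22857871, plus strand: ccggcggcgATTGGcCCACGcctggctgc
The Herpud1 match lay at -52 to -42 and the Dnajb11 match at 7 to 17, past the start. The 150 bases before the start of Hspa5, which encodes BiP, and of Herpud1 are given with the match in capitals.
Hspa5, chr2:34771940-34772089, plus strand: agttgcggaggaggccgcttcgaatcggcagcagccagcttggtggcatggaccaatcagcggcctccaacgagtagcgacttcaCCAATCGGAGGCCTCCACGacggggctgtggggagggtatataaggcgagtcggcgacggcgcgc
Herpud1, chr8:94386279-94386428, plus strand: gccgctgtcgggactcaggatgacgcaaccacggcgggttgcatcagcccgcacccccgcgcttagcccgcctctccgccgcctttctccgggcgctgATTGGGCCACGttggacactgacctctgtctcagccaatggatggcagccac

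The heat shock element of 3 units, written GAANNTTCNNGAA, is the site of HSF1. It was found in 0 of the 17 ER genes, in 3 of the 14 others (21.4%) and in 0.662% of all genes. Hspd1 and Hspe1, which encode the mitochondrial chaperonin and its lid, lie head to head on chromosome 1. From the Hspd1 start at 55087932 and the Hspe1 start at 55088148, their windows share 285 bases. A further Hspd1 start at 55088243 has a window that shares 4 bases with that of Hspe1 and holds no match. The matches in the overlapping windows are the same bases, in overlapping pairs on opposite strands. The match of Hsph1, an HSP110 gene, lay past its start.
Hspe1 and Hspd1, chr1:55088056-55088084, plus strand: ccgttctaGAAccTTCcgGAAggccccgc
Hsph1, chr5:149636280-149636308, plus strand: actgaggaGAActTTCcaGAAtctgcagc
A match describes letters in a window and says nothing of binding in these cells.

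Levels are given below on a log2 scale, as the log2 of the processed signal minus that of the array's 75th percentile probe. A value of 0 is thus the brightness of that probe, and levels of different probes are not compared as amounts of RNA. Differences are log2 fold changes, SC1 over DMSO, with the SE and the Benjamini-Hochberg adjusted p of limma over all 25421 genes, called under 0.05. The 75th percentile of the signal ranged from 532 to 539 with DMSO and from 443 to 493 with SC1. All arrays were on 1 slide. The last numbers of the array barcode, read here as slide row and column although the headers do not name them so, put the DMSO arrays and SC1 replicate 1 in row 1 and SC1 replicates 2 and 3 in row 2. Between 63.2% and 65.6% of probes were well above background. All 8 embryonic stem cell markers listed, Pou5f1 and Sox2 among them, were above background on all arrays, with a summed level of 565 to 591 times the 75th percentile signal on DMSO arrays and 575 to 609 times on SC1 arrays; 1 of them rose and 3 fell. Among these stem cell markers Tdgf1 was 2.62-fold lower, the largest change, and Klf4, the marker that rose, was 1.15-fold higher. Over all genes tested 18.1% were higher and 20.2% lower, to be read beside the marker counts. Of 12 fibroblast markers Lum, Postn and Twist2 were at background on every array. The summed level of the 12 was 3.14 to 3.35 with DMSO and 3.00 to 3.08 with SC1. Among the 9 tested 5 rose, with Dcn 2.26-fold, Col1a1 1.76-fold and Pdgfrb 1.61-fold higher, and Thy1 fell, 2.13-fold. The Dcn probe was dim, with a signal before scaling of 16.4 to 20.8 with DMSO and 36.0 to 36.6 with SC1. Without Thy1 the sum was 1.77 to 1.87 with DMSO and 2.35 to 2.38 with SC1, so its direction rested on that gene; the markers' part in the results below was not tested. In bulk RNA, fewer cells of a type and less RNA per cell cannot be told apart.

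Chaperone genes changed by small amounts, and as reported more of them fell than rose. Of the 39 genes 15 fell, 6 rose and 18 did not pass the test. Over all genes tested 38.4% were called, 20.2% lower and 18.1% higher, while among the chaperone genes 38.5% were lower and 15.4% higher. The median log2 fold change was -0.090, against -0.0052 over all genes. The 3 SC1 arrays and the 3 DMSO arrays did not overlap for 29 of the 39 genes (74.4%), against 52.1% of all genes. The median size of change was 0.17 for the chaperone genes and 0.17 for all genes, and the median SE was 0.050 against 0.064. Herpud1 was the single member that changed at least 1.5-fold, a size reached by 12.5% of all genes. With quantile normalization and with the deposited log2 matrix about as many chaperone genes rose as fell. The excess of falls thus depended on the scaling. The median level of the chaperone probes was 4.8, against -0.52 over all genes, and the shares above were not matched for level. Because the list was made with earlier results of these data known, these shares are a description and not a test.

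The calls depended on the processing. For all 21 called genes the arrays of the groups did not overlap, so differences between single arrays and fits that leave out an array could not change their sign. Across the other settings Dnaja1 was the called gene that changed sign. Row 2 held no DMSO array, so a difference within a row is SC1 replicate 1 minus the mean of the DMSO arrays. For Xbp1 it was -0.56 and for Herpud1 0.67. A block on the slide row thus rests on this single SC1 array. A block on the slide column rests on columns 1 and 2, where both groups had an array. Calls lost under these blocks therefore come with fewer arrays that inform the difference. Only Xbp1 and Herpud1 were called in all 18 alternative settings, and 7 genes were called in at least 16, namely these and Sel1l, Sdf2l1, Manf, Pdia6 and Hspa4. With the arrays scaled to spike-in probes 3 members were called, which were Xbp1, Sdf2l1 and Herpud1. With the slide row as a block the 7 genes just named were called, and with the slide column Xbp1, Sel1l and Herpud1.

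**Figure D1:**
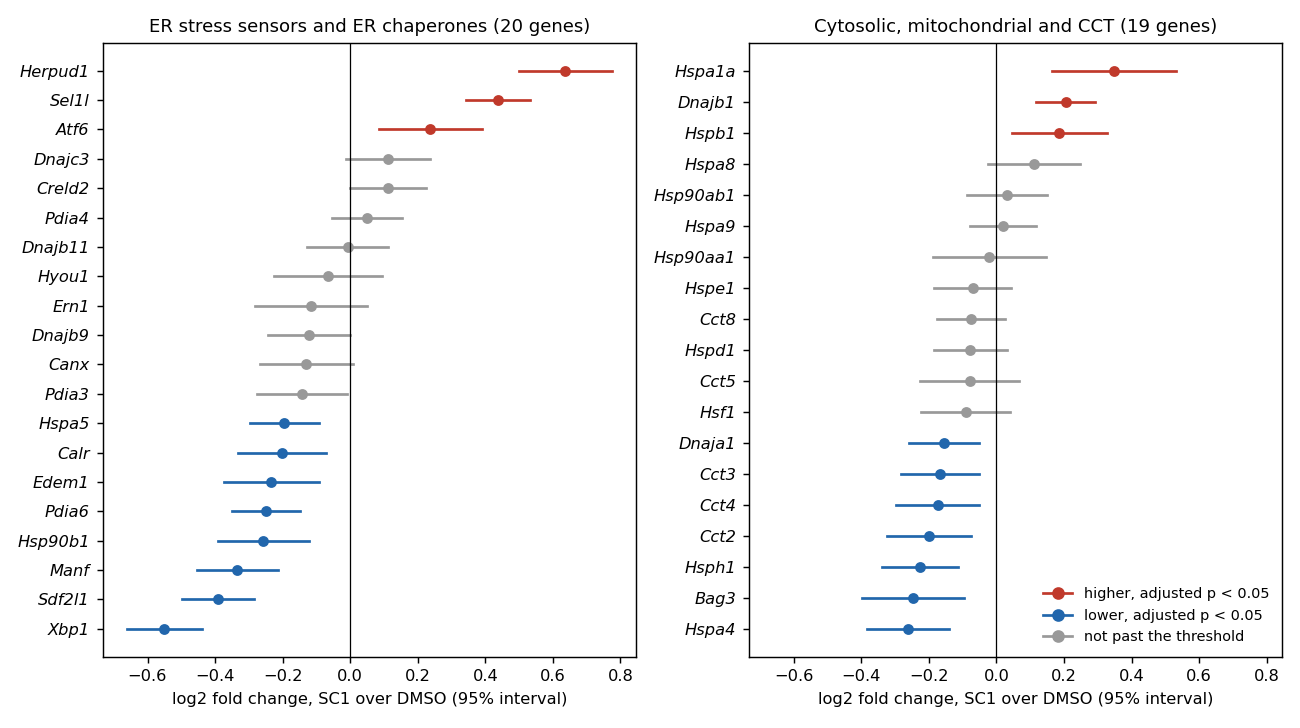
Log2 fold change of each measured chaperone gene, SC1 over DMSO (3 arrays each), with its 95% interval from limma, in the ER group (left) and the cytosolic, mitochondrial and CCT group (right). In the ER group 8 genes fell and 3 rose, from Xbp1 at -0.55 to Herpud1 at 0.64, and in the other group 7 fell and 3 rose, from Hspa4 at -0.26 to Hspa1a at 0.35.

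As reported, the ER group and the cytosolic group did not separate by direction. The counts called in each direction depended on the scaling, while the gap between the group medians kept its sign in the settings given below. Of the 20 ER genes 8 fell, 3 rose and 9 did not pass, with a median of -0.13. Of the 19 cytosolic, mitochondrial and CCT genes 7 fell, 3 rose and 9 did not pass, with a median of -0.077. Relative to the mean of the DMSO arrays, the median ER gene stood at -0.15, -0.091 and -0.17 on the 3 SC1 arrays, and the median gene of the other group at -0.089, -0.096 and -0.061. The ER median was the lower of the pair on SC1 replicates 1 and 3 and not on replicate 2. The gap between the medians was -0.050 in the fit. On the single SC1 arrays it was -0.065, 0.0046 and -0.11 (SD 0.057), and on the single DMSO arrays 0.015, -0.021 and 0.0028. That SD is of single arrays and not of a mean over 3, and the gap was not tested. With quantile normalization 4 ER genes rose and 6 fell, while in the other group 4 rose and 2 fell. With the deposited matrix the ER counts were the same, and in the other group 3 rose and 2 fell. The gap was -0.065 and -0.058 in these 2 settings.

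Among the sensors and transcription factors of the unfolded protein response, Xbp1 fell and Atf6 rose. Xbp1, the factor whose messenger RNA IRE1 splices, was at 4.89, 4.84 and 4.90 on the DMSO arrays and at 4.31, 4.28 and 4.38 on the SC1 arrays. The groups did not overlap. The log2 fold change was -0.55 (SE 0.045, n = 3 per group, adjusted p = 0.000358), a decrease of 1.46-fold. Whether the probe separates the spliced from the unspliced form was not analysed here. Atf6, the membrane-bound sensor that is cleaved in the Golgi, was at -0.70, -0.68 and -0.87 with DMSO and at -0.52, -0.54 and -0.49 with SC1. Its log2 fold change was 0.24 (SE 0.062, adjusted p = 0.0273). Without SC1 replicate 1, 2 or 3 the adjusted p of Atf6 was 0.0724, 0.0603 or 0.0800, and a block on the replicate number gave 0.0700. Ern1, which encodes IRE1, had a log2 fold change of -0.12 (adjusted p = 0.230), and its groups overlapped.

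The genes of the HSP70 and HSP90 proteins of the ER lumen both fell. Hspa5, which encodes BiP, was at 6.03, 6.08 and 6.11 with DMSO and at 5.89, 5.85 and 5.90 with SC1, without overlap. Its log2 fold change was -0.19 (SE 0.042, adjusted p = 0.0135). Without DMSO replicate 3 the adjusted p of Hspa5 was 0.0506, and with quantile normalization the difference was -0.097 (adjusted p = 0.101). Hsp90b1, which encodes GRP94, was at 5.99, 6.04 and 6.05 with DMSO and at 5.79, 5.68 and 5.83 with SC1, a difference of -0.26 on the log2 scale (SE 0.055, adjusted p = 0.0133). All 3 SC1 arrays were below all DMSO arrays for this gene. With normexp and quantile normalization the difference of Hsp90b1 was -0.092 (adjusted p = 0.200). Hyou1, the nucleotide exchange factor of BiP, differed by -0.065 and did not pass, on a dim probe with overlapping groups.

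Of the lectin chaperones, which hold glycoproteins until they fold, Calr fell and Canx did not pass. Calr, the gene of calreticulin, was at 4.37 to 4.40 with DMSO and 4.11 to 4.27 with SC1, a difference of -0.20 on the log2 scale (SE 0.053, adjusted p = 0.0284). When DMSO replicate 1, 2 or 3 or SC1 replicate 2 or 3 was left out, the adjusted p of Calr was 0.0673 to 0.0822, and with quantile normalization the difference was -0.12 (adjusted p = 0.109). The log2 fold change of Canx, the gene of calnexin, was -0.13 (adjusted p = 0.122).

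Of the disulfide isomerases Pdia6 fell, while Pdia3 and Pdia4 did not pass. Pdia6 was at 6.33, 6.36 and 6.40 with DMSO and at 6.09, 6.11 and 6.14 with SC1. The groups were tight and apart, with a difference of -0.25 on the log2 scale (SE 0.041, adjusted p = 0.00510). A further probe of Pdia6 gave -0.18 and did not pass. Pdia3, the isomerase that works with calnexin and calreticulin, differed by -0.14 (adjusted p = 0.0857) and Pdia4 by 0.050.

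The J proteins and small luminal factors of the ER moved unequally. Sdf2l1, a luminal partner of ER J proteins, was at 1.58, 1.52 and 1.61 with DMSO and at 1.17, 1.16 and 1.20 with SC1. Its log2 fold change was -0.39 (SE 0.043, adjusted p = 0.00112), next after Xbp1 among the decreases. Manf, a secreted factor that is held in the ER by BiP, was at 3.61, 3.58 and 3.58 with DMSO and at 3.27, 3.18 and 3.32 with SC1, and fell by 0.33 on the log2 scale (SE 0.049, adjusted p = 0.00331). Neither gene's groups overlapped. Dnajb9, Dnajb11 and Dnajc3, whose products stimulate BiP, differed by -0.12, -0.0077 and 0.11 and did not pass. A second, dimmer probe of Dnajb9 gave -0.26 and passed (adjusted p = 0.0250). Creld2, an ER stress-induced luminal factor, differed by 0.11 (adjusted p = 0.110), with every SC1 array above every DMSO array.

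Genes of ER-associated degradation, which pulls misfolded proteins back to the proteasome, held the largest increases of the list. Herpud1, which organises the degradation complex in the membrane, was at 1.87, 1.86 and 1.74 with DMSO and at 2.49, 2.39 and 2.50 with SC1. Its log2 fold change was 0.64 (SE 0.056, adjusted p = 0.000476), an increase of 1.56-fold. Sel1l, the adaptor of the ubiquitin ligase HRD1, was at -0.60, -0.58 and -0.54 with DMSO and at -0.12, -0.14 and -0.14 with SC1, and rose by 0.44 (SE 0.039, adjusted p = 0.000468). Both genes were well apart between the groups. Sel1l had an adjusted p of 0.0601 with spike-in scaling. Edem1, which extracts misfolded glycoproteins from the folding cycle, was the degradation gene of the list that fell. It was at 1.85, 1.77 and 1.75 with DMSO and at 1.60, 1.47 and 1.61 with SC1, a difference of -0.23 on the log2 scale (SE 0.058, adjusted p = 0.0228). Without DMSO replicate 1, DMSO replicate 2 or SC1 replicate 2 the adjusted p of Edem1 was 0.0691, 0.0567 or 0.0501. Genes of the integrated stress response, which shares targets with this group, were read from the same fit: Ddit3, the gene of CHOP, rose by 1.22 and Atf4 by 0.62, and Asns differed by 0.12 and did not pass (adjusted p = 0.0955).

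**Figure D2:**
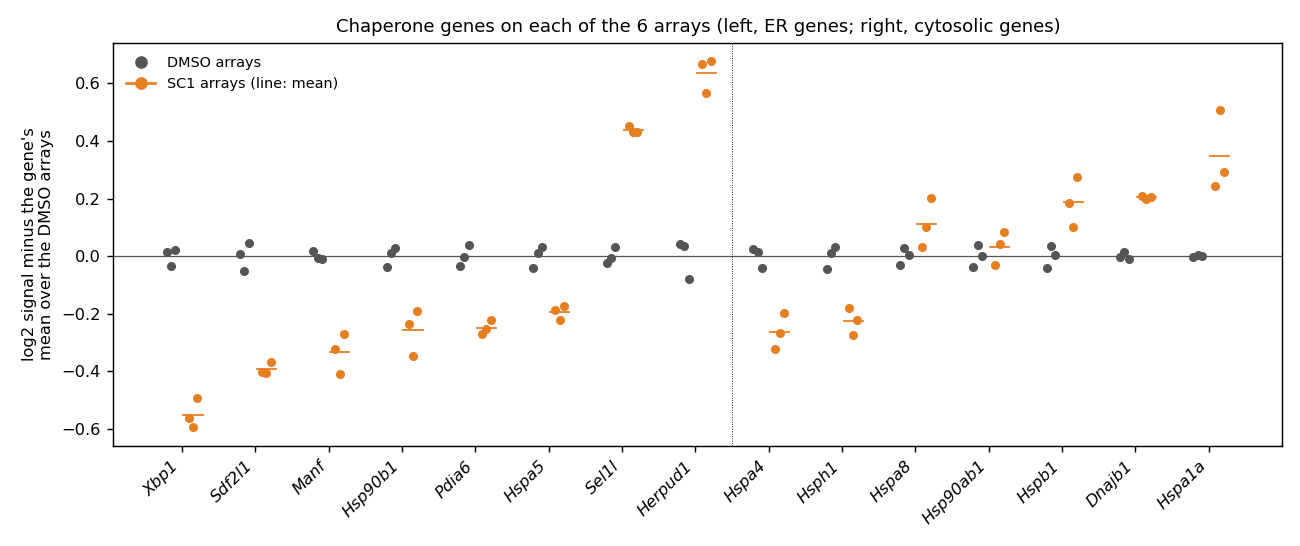
Log2 signal of 15 chaperone genes on each array, minus the gene's mean over the 3 DMSO arrays; grey points are DMSO arrays, orange points SC1 arrays and orange lines their means. Among the ER genes on the left Xbp1, Sdf2l1, Manf, Sel1l and Herpud1 stand farthest from their DMSO arrays. On the right Hspa1a, with a dim probe, has a mean difference of 0.35, while the SC1 and DMSO arrays of Hsp90ab1 overlap.

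The counts by promoter element are given beside the 20.2% of all genes that fell and the 38.4% called. Of the 7 ER genes with an exact ER stress element, all tested, Hsp90b1, Pdia6, Calr and Hspa5 fell and Canx, Creld2 and Dnajc3 did not pass, with a median of -0.19. Of the 10 ER genes that had a window without it, 3 fell, 2 rose and 5 did not pass, with a median of -0.12. Outside the list 30 further genes carried the element and 15 were tested. Of these 5 fell, 2 rose and 8 did not pass, with a median of 0.11. The element II genes in the list were Herpud1, which rose, and Dnajb11, which did not pass. Of 7 tested genes with element II outside the list 3 fell and 4 did not pass, with a median of -0.19. The motif groups were small and no difference between them was tested.

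**Figure D3:**
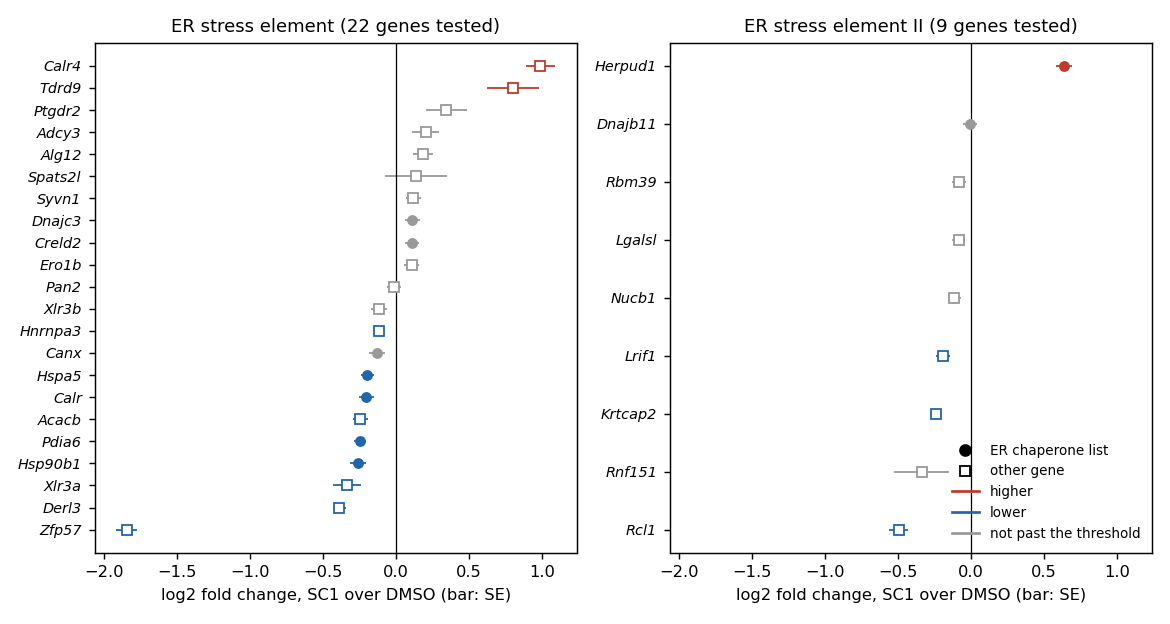
Log2 fold change, SC1 over DMSO, with its SE, of every tested gene with the ER stress element (left, 22 genes) or element II (right, 9 genes) in its promoter window; filled circles are genes of the chaperone list and open squares other genes. On the left 9 genes fell and 2 rose, and on the right 3 fell and Herpud1 rose.

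The cytosolic HSP90 genes, the constitutive HSP70 gene and Hsf1 did not pass. Hsp90aa1 and Hsp90ab1, the inducible and constitutive cytosolic HSP90 genes, had log2 fold changes of -0.021 (95% interval -0.19 to 0.15) and 0.032 (95% interval -0.086 to 0.15). Their SC1 and DMSO arrays overlapped. Hsf1, the regulator of the heat shock genes, differed by -0.090 (95% interval -0.22 to 0.042). Hspa8, the constitutive HSP70 gene, was at 8.61, 8.66 and 8.64 with DMSO and at 8.67, 8.74 and 8.84 with SC1, a difference of 0.11 (adjusted p = 0.171) without overlap. Its 3 probes did not go the same way, with -0.13, -0.0014 and 0.11, and none passed.

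In the cytosolic, mitochondrial and CCT group Dnajb1, Hspb1 and Hspa1a rose, each by a small amount, while 7 genes of that group fell. Dnajb1, the J protein most tied to the heat shock response, was at 4.72, 4.74 and 4.72 with DMSO and at 4.94, 4.92 and 4.93 with SC1. The log2 fold change was 0.20 (SE 0.036, adjusted p = 0.00655), and after scaling the arrays within a group differed far less than the groups. Before scaling the groups overlapped, with a signal of 14025 to 14223 with DMSO and 13523 to 15101 with SC1. Spike-in scaling gave 0.16 (adjusted p = 0.555), and blocks on the slide row or column also lost the call. Hspb1, a small heat shock protein that holds unfolded clients, was at 8.14, 8.22 and 8.18 with DMSO and at 8.36, 8.28 and 8.46 with SC1, a difference of 0.19 on the log2 scale (SE 0.058, adjusted p = 0.0472). The call of Hspb1 was lost without DMSO replicate 1, 2 or 3 or SC1 replicate 1 or 3 (adjusted p 0.0850 to 0.130) and under a block on the replicate number (adjusted p = 0.0978). Spike-in scaling lost it too (0.15, adjusted p = 0.624). Before scaling the signal of Hspb1 overlapped, at 151921 to 158179 with DMSO and 142501 to 162407 with SC1.

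Hspa1a, the stress-inducible HSP70 gene, was at -3.38 on all 3 DMSO arrays and at -3.13, -2.87 and -3.09 on the SC1 arrays, a difference of 0.35 on the log2 scale (SE 0.075, adjusted p = 0.0140). The probe was dim. Before scaling its signal was 51.7, 51.3 and 51.3 with DMSO and 56.2, 62.6 and 52.15 with SC1. With normexp and quantile normalization the difference was 0.14 and passed, and it lost its call with the slide row as a block (0.25, adjusted p = 0.142). Hspa1a and Hspa1b are known as near-identical copies, so the value is uncertain as one of Hspa1a alone; which of them the probe detects was not tested. Their promoter windows had the same base at 296 of 300 positions (98.7%).

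Hspa4, Hsph1 and Bag3, which work with cytosolic HSP70, fell. Hspa4, an HSP110 that releases ADP from HSP70, was at 6.84, 6.83 and 6.77 with DMSO and at 6.49, 6.54 and 6.61 with SC1, a difference of -0.26 on the log2 scale (SE 0.050, adjusted p = 0.00856). Its other probes gave -0.19 and -0.10 and did not pass. Hsph1, a further HSP110, was at 4.53, 4.59 and 4.61 with DMSO and at 4.40, 4.30 and 4.36 with SC1, and fell by 0.23 on the log2 scale (SE 0.046, adjusted p = 0.0116). With quantile normalization the adjusted p of Hsph1 was 0.0531. Bag3, a co-chaperone that steers HSP70 clients to autophagy, was at 2.41, 2.21 and 2.35 with DMSO and at 2.11, 2.05 and 2.07 with SC1, and fell by 0.25 on the log2 scale (SE 0.061, adjusted p = 0.0227). Without DMSO replicate 1 or 3 or SC1 replicate 2 or 3 the adjusted p of Bag3 was 0.0630 to 0.0737. The brightest probe of Dnaja1, a J protein gene, passed at -0.15 (SE 0.042, adjusted p = 0.0317), while a further one stood at 0.34 and did not pass. The mean of the probes was 0.094 (adjusted p = 0.317), and the adjusted p of the brightest probe was 0.0531 to 0.0911 without any 1 array, so Dnaja1, counted among the 15 lower genes by that probe, has no settled direction.

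**Figure D4:**
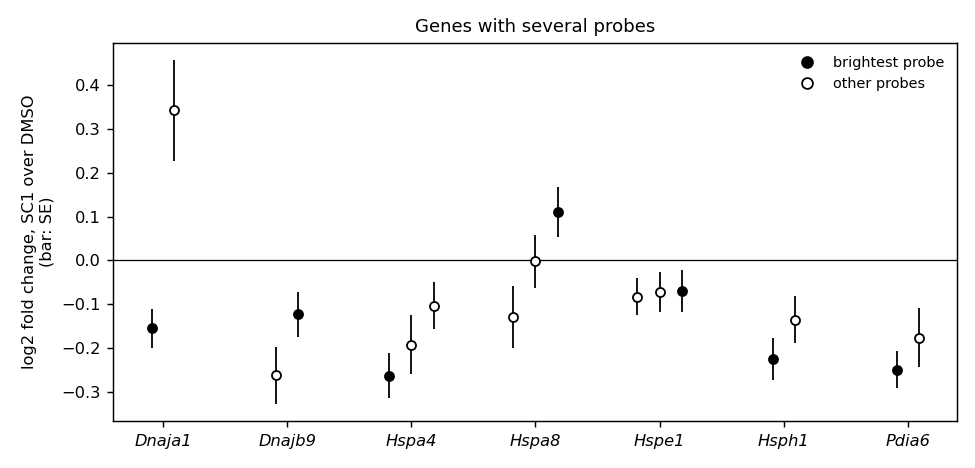
Log2 fold change, SC1 over DMSO, with its SE, of each probe of the 7 chaperone genes with several tested probes; filled points are the brightest probe, which stands for the gene. In 5 genes all probes had the same sign, while the probes of Dnaja1 (-0.15 and 0.34) and Hspa8 (-0.13 to 0.11) lay on both sides of 0.

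The mitochondrial chaperones did not pass. Hspd1 and Hspe1, the head-to-head pair, had log2 fold changes of -0.077 (95% interval -0.19 to 0.032) and -0.071 (95% interval -0.18 to 0.042), and the 3 probes of Hspe1 gave -0.083, -0.072 and -0.071. Hspa9, the mitochondrial HSP70 gene, differed by 0.019 (95% interval -0.080 to 0.12).

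Of the 5 listed subunits of the chaperonin CCT, the double ring that folds actin and tubulin, 3 fell and 2 did not pass. Cct2 fell by 0.20 (SE 0.051, adjusted p = 0.0254), Cct4 by 0.17 (SE 0.050, adjusted p = 0.0384) and Cct3 by 0.17 (SE 0.048, adjusted p = 0.0362) on the log2 scale. Cct5 and Cct8 differed by -0.079 and -0.076. The subunits outside the list, Tcp1, Cct6a and Cct7, named after their values were seen, differed by -0.062, -0.22 and -0.031 and did not pass, and Cct6b, a paralog of Cct6a, rose by 0.71. These calls were close to the threshold. Without 1 array the adjusted p ran from 0.0236 to 0.0818 for Cct2, passing only without SC1 replicate 1, from 0.0289 to 0.110 for Cct3, passing only without DMSO replicate 1, and from 0.0574 to 0.108 for Cct4. With quantile normalization none of the 3 passed, with differences of -0.15, -0.067 and -0.076 for Cct2, Cct3 and Cct4, and Cct8 stood at 0.021.

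Further chaperone and folding genes, taken from lists by function, were pooled by compartment and read against the 38.4% called over all genes. Of 43 other ER genes 6 rose and 10 fell (37.2% called), and of 49 other cytosolic and mitochondrial genes 7 rose and 8 fell (30.6% called). Among 17 other ER folding genes 6 fell and 11 did not pass. The leading change there was Serp1, which protects membrane proteins during translocation, at 3.31, 3.29 and 3.31 with DMSO and 2.60, 2.56 and 2.57 with SC1, a difference of -0.73 on the log2 scale (SE 0.038, adjusted p = 7.25e-05). Ero1a, the oxidase that reloads disulfide isomerases, fell by 0.43 and Calu, a calcium-binding ER protein gene, by 0.30 on the log2 scale.

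Among 17 other degradation genes 3 rose and 2 fell. Derl3 and Selenos, parts of the export complex, fell by 0.39 and 0.20 on the log2 scale, and Erlec1, a lectin of the same pathway, rose by 0.41. Among 9 other sensors and membrane-bound factors 3 rose and 2 fell. Creb3l1 fell by 0.60 on the log2 scale, and Creb3l2 and Creb3 rose by 0.71 and 0.17. The Creb3l2 probe was dim, with a signal before scaling of 48.3 to 55.5 with DMSO and 64.2 to 78.6 with SC1.

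Among 12 other cytosolic HSP70, J and small heat shock genes 5 rose and 1 fell. Hspb8, the small heat shock partner of BAG3, was at 0.80, 0.87 and 0.65 with DMSO and at 1.78, 1.71 and 1.81 with SC1, a difference of 0.99 on the log2 scale (SE 0.068, adjusted p = 0.000188). This was a larger difference than that of any of the 39 chaperone genes. Dnajb6 rose by 0.62 and Dnajb4 by 0.35, the latter on a dim probe (signal before scaling 51.2 to 53.6 with DMSO and 52.1 to 62.7 with SC1). Among 17 other HSP90 and HSP70 co-chaperones 2 rose and 3 fell, with St13 at -0.28, Cacybp at -0.14 and Ahsa2 at 0.39. The Ahsa2 probe was dim, with an overlapping signal before scaling of 23.6 to 26.7 with DMSO and 25.8 to 29.4 with SC1. Of 9 other CCT and prefoldin genes Pfdn2 alone passed, at -0.44. Of 11 other mitochondrial chaperone and protease genes 3 fell and 8 did not pass; those that fell were Grpel2 (-0.46) and Grpel1 (-0.23), exchange factors of mitochondrial HSP70, and Afg3l2 (-0.23), a protease gene.

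**Figure D5:**
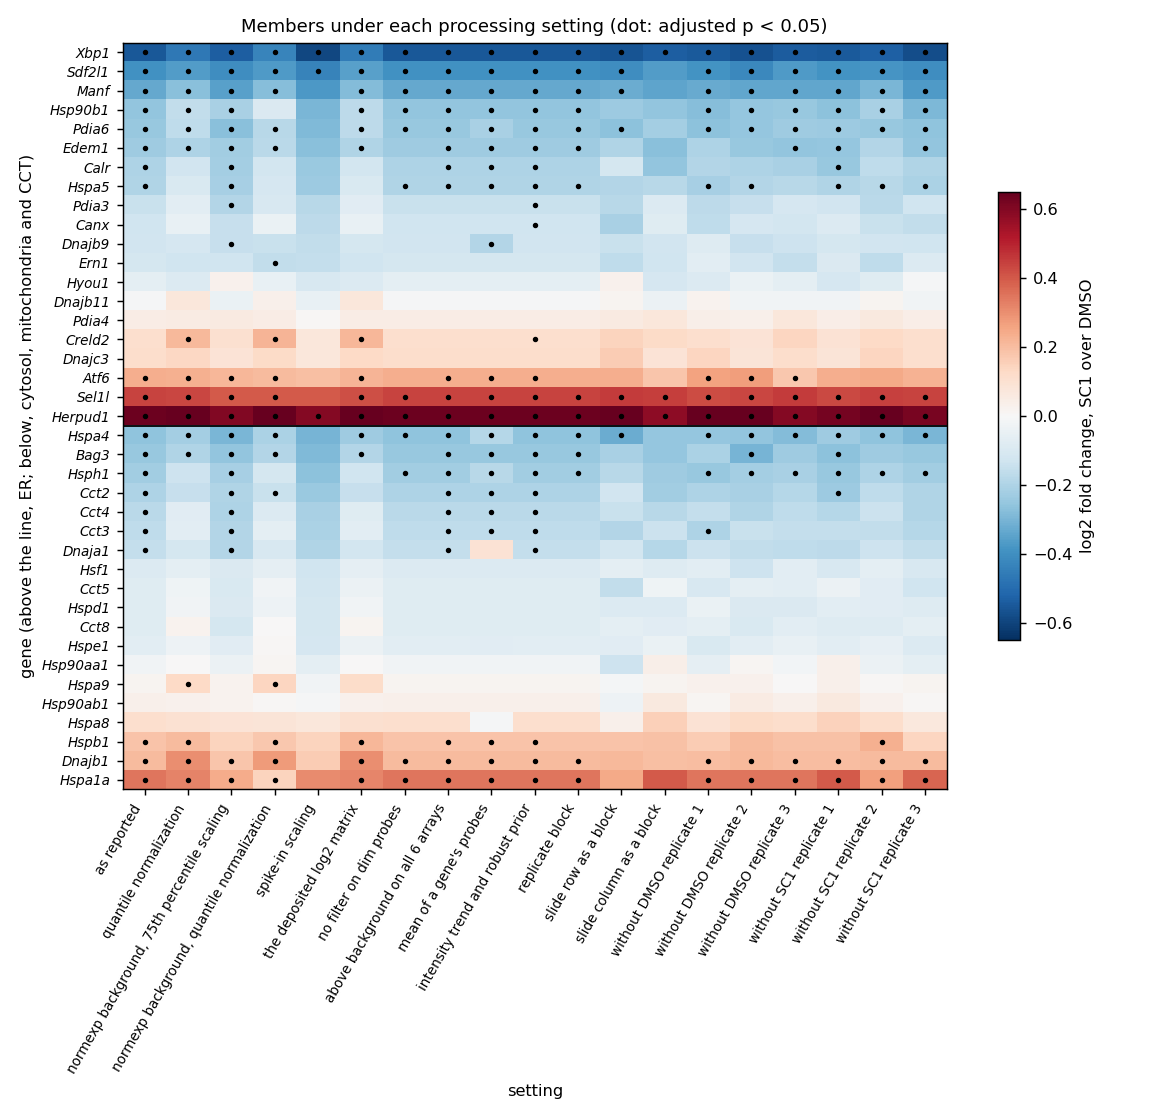
Log2 fold change of each measured chaperone gene (rows; ER genes above the line) as reported and under 18 other settings (columns), with a dot where the adjusted p was under 0.05. Xbp1 and Herpud1 carry a dot in every column; spike-in scaling leaves 3 genes with a dot, as does a block on the slide column.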

How the data were processed

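The authors deposited, per array, an intensity for each spot from Agilent Feature Extraction 10.7, per the file headers and the submitters' processing notes: a processed signal corrected for background and spatial trend, raw median signals, and other 0 or 1 flags per spot. They also deposited a log2 matrix, whose method is not given in the sources used here. All 6 arrays came from 1 slide and 1 scan.

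Flagged outlier spots (137 to 201 per array) were left out, the log2 processed signal was averaged per probe (55681 probes), and each array was scaled to its 75th percentile probe. Probes well above background on all 3 arrays of a group were kept (35321), and those with no value on some array were left out. Accessions were matched to RefSeq symbols of GRCm38.p6 (27235 probes), and the brightest probe stood for a gene. limma 3.58.1 in R 4.3.3 compared the groups, two-sided, and the pipeline was tested on simulated data. Intervals are at the 95% level.

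The members and lists were chosen with earlier results of these data known. Named were all 40 members, up to 3 genes with the smallest p of each further list that passed, and Ddit3, Atf4 and Asns. Some cell type markers were named too. Outside this rule Tcp1, Cct6a, Cct7 and Cct6b, the last from none of the lists, were named after their values were seen. Alternatives changed scaling, background (normexp, offset 50), filter, probe choice, model, blocks and samples. Motifs were searched in Python 3.11.15. No protein sequences were used here.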

Additional observations from a re-analysis of the deposited data

How the results depend on the processing

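Counts called depended on the scaling and on blocks. The block on the slide row rests on SC1 replicate 1 as its only SC1 array beside DMSO arrays. The block on the slide column rests on columns 1 and 2, which held both groups. With spike-in scaling 5067 genes were called in all and 3 chaperone members, 1 ER gene higher and 2 lower and 0 of the other group either way. The spike-in probes stood 4.08 to 4.18 above the 75th percentile on the DMSO arrays and 4.05 to 4.38 above it on the SC1 arrays (log2). With the slide row as a block 5542 genes and 7 members were called, 4 ER genes lower, and in the other group 0 higher and 1 lower. With the slide column as a block 3324 genes and 3 members were called, 1 ER gene lower, and in the other group 0 higher and 0 lower. Without a filter on dim probes 12 members were called. In the cytosolic, mitochondrial and CCT group the count of lower genes, 7 as reported, was 2 with quantile normalization, with the deposited matrix and without a filter, and 3 with normexp and quantile normalization and with the replicate block. The count of higher genes in that group, 3 as reported, was 4 with quantile normalization, 4 with normexp and quantile normalization and 3 with the deposited matrix. In these 3 settings 4 ER genes were higher and 6 lower. Leaving out each array gave 13 to 16 members called, 2 to 3 ER genes higher and 6 to 8 lower, 2 to 3 of the other group higher and 2 to 4 lower, 7747 to 8398 genes in all, and a gap between the group medians of -0.082 to -0.041. The share of called genes that rose was 47.3%, and 57.9% with normexp and 75th percentile scaling. No scaling moved the median of all genes by more than 0.047. Chaperone genes moved unequally and some moved more. With quantile normalization Hspa5 went from -0.19 to -0.097 and Cct3 from -0.17 to -0.067, while Atf6 went from 0.24 to 0.23.

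The replicate numbers did not pair the samples (correlations of deviations -0.013, -0.036 and -0.015 for the same numbers); with the replicate block 14 members were called of 7914 genes in all. Of 21 called members 10 lost their call in at least 1 fit that left out an array, 18 with spike-in scaling, 14 under a block on the slide row and 18 under one on the slide column.

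Changes of sign concerned 8 members that did not pass and Dnaja1, which turned to 0.094 with the mean of its probes, as Hspa8 did to -0.0062. With quantile normalization Dnajb11 was at 0.074, Hsp90aa1 at 0.0022 and Cct8 at 0.021. With the deposited matrix these were 0.073, 3.2e-05 and 0.019. With normexp and quantile normalization Dnajb11 was at 0.031, Hsp90aa1 at 0.014, Hspe1 at 0.0054 and Cct8 at 0.0038, and with normexp and 75th percentile scaling Hyou1 was at 0.030. With spike-in scaling Hsp90ab1 was at -0.0079 and Hspa9 at -0.021. With the slide row as a block Hyou1 was at 0.029, Dnajb11 at 0.019, Hsp90ab1 at -0.031 and Hspa9 at -0.013, and under a block on the slide column Hsp90aa1 at 0.040. Leaving out each array in turn gave -0.024 to 0.022 for Dnajb11 and -0.062 to 0.035 for Hsp90aa1. The causes were not tested. The number of arrays limits the precision.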
